A study of Mus musculus with 28 samples.

Results

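The genes 1700028E10Rik, Tmem86b, Raet1e, Slc44a3 and Afm are 5 of the 54446 genes counted in each library of mice gavaged with nicotinamide mononucleotide (NMN), a precursor of the coenzyme NAD+. They were chosen by a measured value, the difference in liver between the NMN effects of the schedules with gavage once daily (1340 mg/kg/d) and 2 times daily (2680 mg/kg/d). That difference was fitted as an interaction over the 14 liver libraries with edgeR's quasi-likelihood test, and the adjusted p was under 0.05 for 10 of 13412 genes (0.0746%). These 5 are among those 10. Every NMN effect of the 5 genes in liver is therefore given as a description, the adjusted p values of the interaction are printed only as the values that chose the genes, and so are the differences between organs, which use the same liver water libraries. Tests of the NMN effect are given for the 4 genes with enough reads in the kidney. As a description, at 1340 mg/kg/d all NMN mice lay above all water mice for 1700028E10Rik, as at 2680 mg/kg/d, and for Raet1e, whose NMN mice were lower at 2680 mg/kg/d. The mice of 3.57% of all tested genes did not overlap in that schedule. For Tmem86b, Slc44a3 and Afm the mice overlapped at 1340 mg/kg/d.

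All mice were male and 8 weeks old, of the strain C57BL/6 in the labels and C57BL6J in the methods of the study, with no genetic change stated, and gavage lasted 7 days. Water or NMN (1340 mg/kg/d) was given once daily to 4 mice each, and water or NMN (2680 mg/kg/d) was given 2 times daily to 3 mice each, as counted from the libraries of each organ. Whether the liver and kidney libraries with the same number come from the same mouse is not stated. Liver and kidney were sequenced as polyA-selected RNA, which made 28 libraries. The daily dose and the number of gavages changed together, so their effects cannot be told apart. Counted reads per library ran from 12688324 to 16455228 (liver) and from 13174264 to 15696435 (kidney) at 1340 mg/kg/d, and from 17573184 to 20635269 (liver) and from 16358886 to 33872983 (kidney) at 2680 mg/kg/d. The libraries of the schedules stood apart in more than depth. In the water mice, reads on mitochondrial genes made up 3.89% to 5.34% of counted reads in liver and 9.10% to 10.6% in kidney at 1340 mg/kg/d, and 5.74% to 7.37% and 19.8% to 21.6% at 2680 mg/kg/d. Reads aligned to more than 1 place made up 10.4% to 11.6% of the reads of the kidney water libraries at 1340 mg/kg/d and 19.2% to 19.95% at 2680 mg/kg/d. The liver library of NMN replicate 4 at 1340 mg/kg/d had 12.8% of reads with no feature and 5.10% ambiguous. The other 7 liver libraries of that schedule had 4.91% to 7.44% and 3.09% to 3.59%. A read with no feature did not lie wholly within the exons of a gene. In liver at 2680 mg/kg/d, reads with no feature made up 3.90% to 5.06% with NMN and 3.27% to 3.62% with water, without overlap. Mitochondrial reads there were 7.04% to 9.24% with NMN and 5.74% to 7.37% with water, which overlap. The part of these differences in the NMN effects was not tested. The methods of the study name more than 1 sequencer, the Illumina NextSeq or the Illumina HiSeq Xten. The sequencer of each library is not given in the sources used here, so whether it differed between the schedules is unknown. The organ markers matched the labels: summed over 8 hepatocyte genes, the water mice of the 1340 mg/kg/d schedule had 111490 CPM (the count of a gene relative to its library, with TMM scaling inside each organ) in liver and 1746 CPM in kidney, and the loop of Henle gene Umod had 2.88 CPM in liver and 2108 CPM in kidney.

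Hepatocytes make most plasma proteins and much of the phospholipid of the body, and the 4 protein-coding genes of the group belong to that work or to the cell surface. Tmem86b encodes a lysoplasmalogenase, which cleaves the vinyl ether bond of lysoplasmalogens, the ether-linked lysophospholipids. Slc44a3 encodes a choline transporter-like membrane protein of the family of Slc44a1. Afm encodes afamin, a plasma glycoprotein of the albumin family that binds vitamin E. Raet1e belongs to the retinoic acid early inducible family, which are surface proteins like class I histocompatibility molecules and ligands of NKG2D, the activating receptor of natural killer cells encoded by Klrk1. 1700028E10Rik is annotated as a processed transcript without a protein product, and no role is given for it here.

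The promoter windows of RefSeq (build GRCm38.p6, 250 bases before to 50 bases after the start of a gene) were found for all 5 genes. Those of the gene that was higher with NMN and of a pair of genes that were lower are printed 5′ to 3′ on the strand of the gene, because they show how little the 3 starts have in common in base composition. Capitals mark matches to 9 short motifs, searched on both strands: TATAAA for the TATA box, GTTAAT for a half-site of the liver factor HNF1, AGGTCA for a half-site of nuclear receptors, CAAAGTCCA for HNF4A, TTGCNNAA for C/EBP factors, TGACNNNGC for the NRF2 element, TTCNNNGAA for STAT5, CACGTG for the E-box and TGTTTAC for forkhead factors.
1700028E10Rik, chr5:151368425-151368724, plus strand: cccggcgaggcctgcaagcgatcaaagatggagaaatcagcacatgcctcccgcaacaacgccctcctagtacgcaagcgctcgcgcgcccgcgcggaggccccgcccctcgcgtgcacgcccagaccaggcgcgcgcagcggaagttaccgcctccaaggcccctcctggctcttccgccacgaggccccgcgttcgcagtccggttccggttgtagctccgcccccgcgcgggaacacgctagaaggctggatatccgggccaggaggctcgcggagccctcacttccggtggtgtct
Tmem86b, chr7:4630433-4630732, minus strand: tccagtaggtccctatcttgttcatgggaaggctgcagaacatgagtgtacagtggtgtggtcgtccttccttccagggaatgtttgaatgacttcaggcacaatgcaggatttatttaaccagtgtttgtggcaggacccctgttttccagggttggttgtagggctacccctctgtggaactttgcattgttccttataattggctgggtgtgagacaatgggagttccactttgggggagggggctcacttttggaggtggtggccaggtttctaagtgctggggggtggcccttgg
Afm, chr5:90518699-90518998, plus strand: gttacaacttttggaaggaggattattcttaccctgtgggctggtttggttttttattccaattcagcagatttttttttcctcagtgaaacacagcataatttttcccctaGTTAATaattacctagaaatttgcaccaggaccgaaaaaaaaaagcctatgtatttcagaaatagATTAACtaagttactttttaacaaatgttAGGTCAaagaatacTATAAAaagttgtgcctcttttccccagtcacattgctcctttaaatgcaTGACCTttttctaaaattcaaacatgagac
The window of 1700028E10Rik has a GC content of 69.7% and 38 CpG sites, above 89.9% of the 32851 windows of the table in GC content. The window of Tmem86b has 51.7% GC and 1 CpG, and that of Afm 33.0% GC and 1 CpG, with only 2.24% of all windows lower in GC. Of the 9 motifs, matches were found only in the window of Afm, for 3 of them. TATAAA begins 30 bases before the start (it is present in 13.6% of all windows), GTTAAT begins 138 and 73 bases before it (7.10% of windows), and AGGTCA begins 44 bases before and 20 bases after it (16.3% of windows). The other motifs are present in 10.8% (TTGCNNAA), 12.4% (TGACNNNGC), 8.30% (TTCNNNGAA), 7.15% (CACGTG), 3.65% (TGTTTAC) and 0.475% (CAAAGTCCA) of windows. The windows of Raet1e and Slc44a3 held no match, and their GC content was 65.3% for the first of 2 Raet1e windows, 56.0% for the second and 63.3% for Slc44a3. A match is a stretch of letters and was not tested as a binding site.

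1700028E10Rik was the one gene of the 5 that was higher with NMN in both schedules. At 1340 mg/kg/d, its liver level was 6.43, 10.7, 8.98 and 9.96 CPM in the water mice and 25.0, 23.3, 16.0 and 20.6 CPM in the NMN mice. In the 2680 mg/kg/d schedule it was 5.97, 8.33 and 8.25 CPM in the water mice and 77.2, 67.5 and 65.3 CPM in the NMN mice. In each schedule all NMN mice lay above all water mice, and the NMN mice at 2680 mg/kg/d lay above those at 1340 mg/kg/d. The log2 fold change was 1.23 (standard error 0.20) at 1340 mg/kg/d and 3.21 (standard error 0.19) at 2680 mg/kg/d, which is 2.35-fold and 9.26-fold, and the difference between the effects was 1.99 (standard error 0.27). Between 83 and 388 reads per library stood behind the 1340 mg/kg/d values and between 112 and 1524 behind the 2680 mg/kg/d values.

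Tmem86b, the lysoplasmalogenase gene, had a lower mean with NMN in both schedules. The 1340 mg/kg/d water mice had 85.1, 60.6, 74.6 and 63.4 CPM, and the NMN mice had 61.0, 40.4, 40.7 and 41.8 CPM. The 2680 mg/kg/d water mice had 117, 99.1 and 99.8 CPM, and the NMN mice had 24.6, 24.1 and 17.6 CPM. The groups overlapped at 1340 mg/kg/d through NMN replicate 1, which lay above the lowest water mouse, and did not overlap at 2680 mg/kg/d. The log2 fold change was -0.63 (standard error 0.17) at 1340 mg/kg/d and -2.26 (standard error 0.17) at 2680 mg/kg/d, that is 0.648-fold and 0.209-fold.

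For Raet1e the direction differed. Its 1340 mg/kg/d level was 1.78, 2.35, 3.43 and 3.83 CPM in the water mice and 5.21, 5.29, 8.52 and 4.53 CPM in the NMN mice, so every NMN mouse was higher. At 2680 mg/kg/d, it was 5.86, 11.7 and 9.71 CPM with water and 1.42, 2.59 and 2.56 CPM with NMN, so every NMN mouse was lower. The log2 fold change was 1.04 (standard error 0.31) at 1340 mg/kg/d and -2.06 (standard error 0.35) at 2680 mg/kg/d, and the difference between them, -3.10 (standard error 0.48), was the largest of the 5. These values rest on few reads, from 23 to 136 per library at 1340 mg/kg/d and from 28 to 222 at 2680 mg/kg/d. Exons of Raet1e share 363 bases with its paralogue Raet1d and 133 bases with H60b on the same strand. A read wholly inside shared bases was ambiguous and counted for none of these genes, so how such reads divide is unknown.

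For Slc44a3 and Afm the water and NMN mice overlapped at 1340 mg/kg/d and did not overlap at 2680 mg/kg/d. The choline transporter-like gene Slc44a3 had 5.73, 4.17, 5.89 and 3.83 CPM in the 1340 mg/kg/d water mice and 7.19, 6.73, 5.01 and 3.95 CPM in the NMN mice, which overlap. At 2680 mg/kg/d, it had 8.16, 8.86 and 9.53 CPM with water and 1.06, 2.19 and 1.96 CPM with NMN, with between 21 and 44 reads in the NMN libraries. The log2 fold change was 0.22 (standard error 0.26) at 1340 mg/kg/d and -2.35 (standard error 0.31) at 2680 mg/kg/d, or 1.17-fold and 0.196-fold. Afamin (Afm) is the most abundant of the 5 transcripts and varied least between mice. Its 1340 mg/kg/d level was 245, 294, 252 and 248 CPM with water and 262, 284, 281 and 217 CPM with NMN. Its 2680 mg/kg/d level was 420.4, 416 and 383 CPM with water and 203, 211 and 193 CPM with NMN. The log2 fold change of Afm was 0.01 (standard error 0.13) at 1340 mg/kg/d, with a 95% interval from -0.27 to 0.28, and -1.02 (standard error 0.13) at 2680 mg/kg/d, 0.495-fold.

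NMN replicate 4 at 1340 mg/kg/d, the liver library with the largest share of reads with no feature, had the lowest NMN value of that schedule for Raet1e, Slc44a3 and Afm. Without it the log2 fold changes at 1340 mg/kg/d were 1.25 for 1700028E10Rik, -0.59 for Tmem86b, 1.15 for Raet1e, 0.36 for Slc44a3 and 0.08 for Afm, and the differences between the effects were 1.97, -1.67, -3.20, -2.71 and -1.09. At 2680 mg/kg/d, liver NMN replicate 1 had the highest no-feature (5.06%) and mitochondrial (9.24%) shares. It also had the lowest Raet1e and Slc44a3 values of that schedule. Without this library the log2 fold changes at 2680 mg/kg/d were 3.12 for 1700028E10Rik, -2.35 for Tmem86b, -1.84 for Raet1e, -2.11 for Slc44a3 and -1.03 for Afm.

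**Figure D1:**
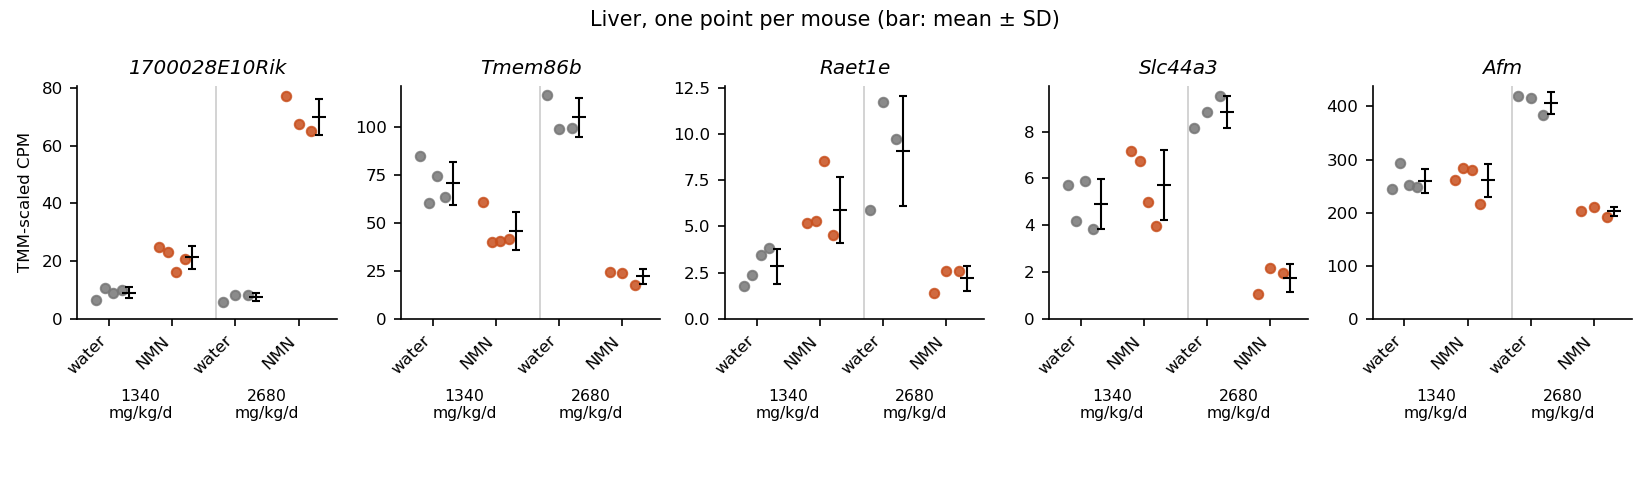
Liver level of each gene in TMM-scaled CPM (vertical axes, each starting at 0) for the 4 groups of mice, with 1 point per mouse and a bar for the mean ± SD of 4 mice (1340 mg/kg/d) or 3 mice (2680 mg/kg/d). The NMN mice at 2680 mg/kg/d lie above all other mice for 1700028E10Rik (65.3 to 77.2 CPM) and below all other mice for Tmem86b, Slc44a3 and Afm, while Raet1e is higher with NMN at 1340 mg/kg/d and lower at 2680 mg/kg/d.

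The background in liver was as follows, and nothing is read from it for genes that this contrast chose. Of 12449 genes tested at 1340 mg/kg/d, 0.0161% passed an adjusted p under 0.05, and for 3.57% the mice of the groups did not overlap. Of 12477 genes tested at 2680 mg/kg/d, 7.08% passed, 3.05% higher and 4.03% lower with NMN, and 29.7% did not overlap. At the threshold of the choice, the genes just inside were Afm (adjusted p = 0.0256 from the edgeR interaction) and Acmsd (adjusted p = 0.0262), and those just outside were Ugt3a1 (adjusted p = 0.0621) and Cyp2c29 (adjusted p = 0.0907), which encode a glycosyltransferase and a cytochrome P450. Their differences between the effects were -1.01, 2.28, -1.25 and -1.31 in that order. Afm stood inside the threshold in 10 of 20 alternative fits, and the other 4 genes in all 20. Under a stricter threshold, an adjusted p under 0.01 with a fold over 2 or under 0.5, Slc44a3 (edgeR adjusted p = 0.0104) and Afm were not among the 6 genes left.

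The water mice of the schedules also differed in level. For the 4 genes that were lower at 2680 mg/kg/d, the 2680 mg/kg/d water mice were all higher than the 1340 mg/kg/d water mice: 105 ± 9.99 CPM (SD, n = 3) against 70.9 ± 11.2 CPM (SD, n = 4) for Tmem86b, and 9.09 ± 2.97 CPM against 2.85 ± 0.946 CPM for Raet1e. Slc44a3 stood at 8.85 ± 0.685 CPM against 4.91 ± 1.06 CPM and Afm at 407 ± 20.3 CPM against 259.7 ± 22.9 CPM in the same comparison. Such a gap was found for 9.05% of 13412 genes (higher at 2680 mg/kg/d) and 10.1% (lower), and these water levels are part of the interaction that chose the genes. 1700028E10Rik did not follow the 4 genes, with 7.52 ± 1.34 CPM at 2680 mg/kg/d and 9.01 ± 1.86 CPM at 1340 mg/kg/d and overlapping mice. The 2680 mg/kg/d NMN mice had 2.19 ± 0.667 CPM of Raet1e, a mean within the range of the 1340 mg/kg/d water mice, whereas their Tmem86b, Slc44a3 and Afm levels were below every 1340 mg/kg/d mouse. The hepatocyte marker Alb was also higher in the 2680 mg/kg/d water mice, at 124015 CPM against 74047 CPM. The water mice of both schedules received no NMN, but the number of gavages differed between them, and for the NMN mice the dose differed as well. The sequencing of the schedules also stood apart, as given above. Gavage number and sequencing thus changed together, and the part of each in these levels was not tested. Each comparison of NMN with water used the water mice of its own schedule. The level of those water mice is thus part of each log2 fold change.

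**Figure D2:**
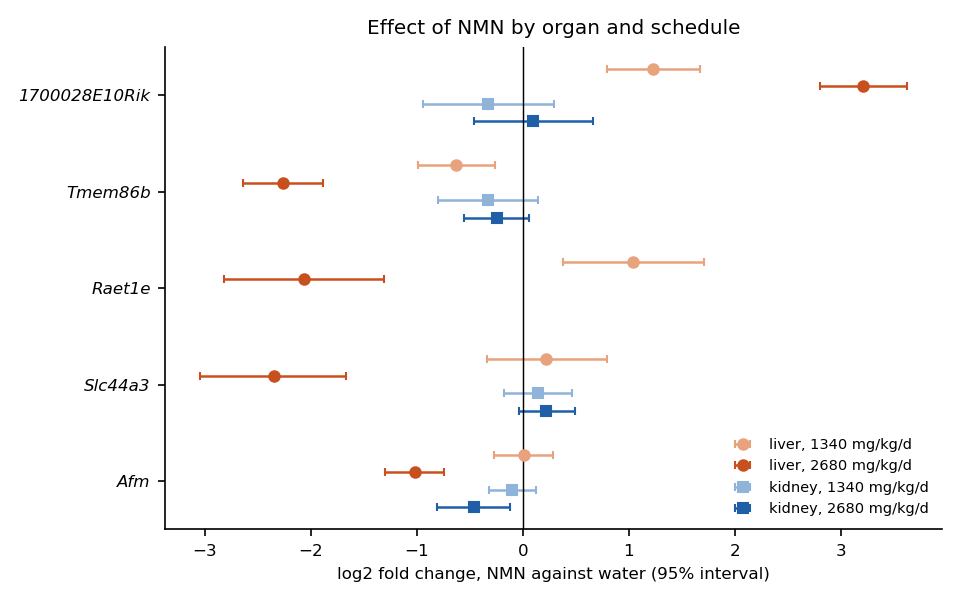
Log2 fold change of NMN against water (horizontal axis, 0 means no difference) for each gene in liver (circles) and kidney (squares), at 1340 and 2680 mg/kg/d, with bars for the 95% interval from the edgeR fit of that comparison. The liver effects at 2680 mg/kg/d run from -2.35 (Slc44a3) to 3.21 (1700028E10Rik), the kidney effects lie between -0.46 and 0.22, and Raet1e has no kidney value because too few reads were counted.

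The kidney was not used to choose the genes, and there NMN effects were tested. None of the 4 genes with enough reads passed the threshold in either schedule with edgeR or with DESeq2, beside 0.12% of 14972 genes at 1340 mg/kg/d and 0.4% of 15245 genes at 2680 mg/kg/d with edgeR and 1.23% and 1.52% with DESeq2. Of their 8 values, that of Afm at 2680 mg/kg/d had an unadjusted edgeR p under 0.05, as 8.94% (1340 mg/kg/d) and 11.1% (2680 mg/kg/d) of all genes had. 1700028E10Rik had 2.04, 2.20, 2.91 and 2.57 CPM with water and 1.88, 2.23, 1.95 and 1.67 CPM with NMN at 1340 mg/kg/d. At 2680 mg/kg/d, it had 2.37, 3.92 and 2.12 CPM with water and 3.22, 2.90 and 2.85 CPM with NMN. The groups overlapped in both schedules, and the log2 fold changes were -0.33 (standard error 0.29, edgeR adjusted p = 0.796) and 0.10 (standard error 0.26, edgeR adjusted p = 0.923). The 95% interval at 2680 mg/kg/d ran from -0.46 to 0.66.

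Tmem86b had 11.3, 7.18, 9.09 and 10.9 CPM in the kidney with water and 5.55, 6.20, 11.3 and 7.41 CPM with NMN at 1340 mg/kg/d. The values at 2680 mg/kg/d were 9.76, 11.2 and 11.3 CPM with water and 8.69, 10.2 and 8.41 CPM with NMN. These groups overlapped, with log2 fold changes of -0.33 (standard error 0.22, edgeR adjusted p = 0.703) and -0.24 (standard error 0.14, edgeR adjusted p = 0.560). With 1 library left out, the Tmem86b effect at 1340 mg/kg/d ran from -0.59 (without NMN replicate 3) to -0.21 (without NMN replicate 1). The edgeR adjusted p was at least 0.263 in these fits. Slc44a3 had 12.7, 11.8, 11.1 and 10.8 CPM with water and 14.8, 10.6, 12.0 and 13.9 CPM with NMN at 1340 mg/kg/d. With 2680 mg/kg/d, it had 13.1, 14.8 and 14.4 CPM with water and 17.8, 14.3 and 16.9 CPM with NMN. The mice overlapped here too, and the log2 fold changes were 0.14 (standard error 0.15, edgeR adjusted p = 0.830) and 0.22 (standard error 0.12, edgeR adjusted p = 0.533), with a 95% interval from -0.04 to 0.49 at 2680 mg/kg/d.

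Afm was the kidney gene nearest to a difference. Its 1340 mg/kg/d level was 50.8, 44.2, 49.1 and 50.3 CPM with water and 50.1, 41.7, 49.7 and 39.9 CPM with NMN. Its 2680 mg/kg/d level was 52.7, 57.1 and 54.8 CPM with water and 29.3, 46.9 and 42.7 CPM with NMN. The groups overlapped at 1340 mg/kg/d, and at 2680 mg/kg/d all 3 NMN mice lay below all 3 water mice, as the mice of 16.9% of all genes did not overlap in that comparison (5.04% at 1340 mg/kg/d). The log2 fold change was -0.10 (standard error 0.10, edgeR adjusted p = 0.830) at 1340 mg/kg/d and -0.46 (standard error 0.15, unadjusted p = 0.0141, edgeR adjusted p = 0.302) at 2680 mg/kg/d, or 0.725-fold. The effect was -0.29 (edgeR adjusted p = 0.194) without NMN replicate 1, the mouse with 29.3 CPM. Without a filter on low counts the same comparison gave -0.44 with an edgeR adjusted p of 0.0011 and would be called. An exact permutation test of 3 mice against 3 cannot give a p below 0.1, and it gave that value. The kidney NMN libraries of this schedule were deeper than the water libraries, with at least 22922994 against at most 18983689 reads, and the part of depth in this difference was not tested.

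The difference between schedules was not shown in the kidney for any of the 4 genes. The kidney interaction was 0.42 (standard error 0.37) for 1700028E10Rik, 0.09 (standard error 0.29) for Tmem86b, 0.07 (standard error 0.20) for Slc44a3 and -0.37 (standard error 0.18) for Afm. The edgeR adjusted p of each was 0.999, and 0.00625% of 15989 genes passed. The 95% interval of Afm ran from -0.74 to 0.00. With 1 library left out, the kidney interaction ran from 0.26 to 0.74 for 1700028E10Rik and from -0.50 to -0.19 for Afm. Whether the effect of NMN differs between the organs was not tested. Raet1e was at or near 0 in the kidney. Summed over a group, 8 and 1 reads were counted at 1340 mg/kg/d (water, NMN) and 9 and 9 at 2680 mg/kg/d, and the single libraries had between 0 and 6 reads. Its kidney level was thus 0.125 CPM with water at 1340 mg/kg/d and 0.182 CPM at 2680 mg/kg/d, a level at which a difference was not detectable.

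**Figure D3:**
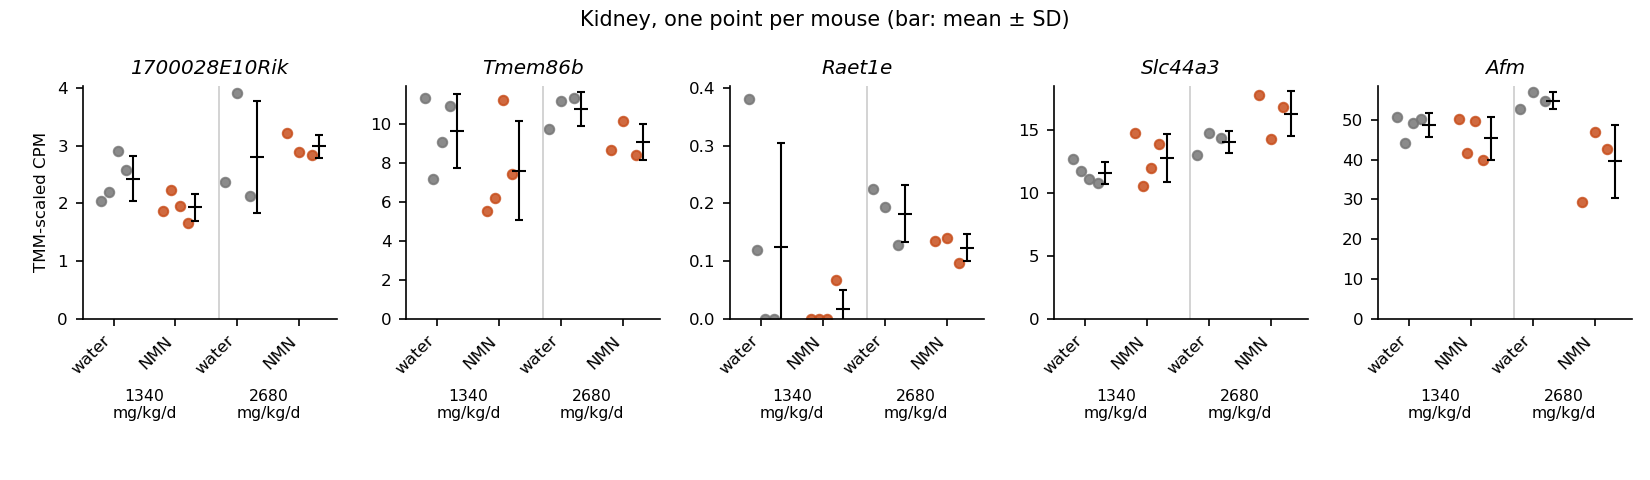
Kidney level of each gene in TMM-scaled CPM (vertical axes, each starting at 0), with 1 point per mouse and a bar for the mean ± SD of 4 mice (1340 mg/kg/d) or 3 mice (2680 mg/kg/d), cut at 0. Water and NMN mice overlap for 1700028E10Rik, Tmem86b and Slc44a3, the NMN mice at 2680 mg/kg/d lie below the water mice for Afm (29.3 to 46.9 CPM), and Raet1e stays below 0.4 CPM.

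In water mice the levels of 4 of the 5 genes were higher in every liver library than in every kidney library, in both schedules, as were those of 28% of all tested genes at 1340 mg/kg/d and 32.9% at 2680 mg/kg/d. The liver water libraries took part in the choice of the genes, so the differences are given as a description. With both organs scaled together, the log2 difference (liver minus kidney) of Tmem86b was 3.79 (standard error 0.18) at 1340 mg/kg/d and 4.20 (standard error 0.14) at 2680 mg/kg/d. That of Afm was 3.33 (standard error 0.12) and 3.80 (standard error 0.11), and that of 1700028E10Rik 2.80 (standard error 0.24) and 2.33 (standard error 0.29). Raet1e had 4.03 ± 1.34 CPM (SD, n = 4) in liver and 0.0940 ± 0.135 CPM in kidney at 1340 mg/kg/d, and 11.6 ± 3.82 CPM (SD, n = 3) and 0.123 ± 0.0336 CPM at 2680 mg/kg/d, and it entered the fit through the liver alone. Differences between the organs were common, with 66.9% of 14599 genes past the edgeR threshold at 1340 mg/kg/d and 70.5% of 14844 genes at 2680 mg/kg/d. The median of all tested genes was -0.103 and -0.173 on the log2 scale.

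Slc44a3 was the exception, with log2 differences between liver and kidney of -0.34 (standard error 0.20) at 1340 mg/kg/d and 0.24 (standard error 0.16) at 2680 mg/kg/d. Its direction depended on the scaling: with both organs scaled together the 2680 mg/kg/d water mice had 11.3 ± 0.916 CPM (SD, n = 3) in liver and 9.51 ± 0.613 CPM in kidney, and with each organ scaled alone they had 8.85 and 14.1 CPM. Per length of the merged exons and with the organs scaled together, the liver levels of the 1340 mg/kg/d water mice were 121 RPKM (that CPM per kilobase of exon) for Afm, 52.4 RPKM for Tmem86b, 1.87 RPKM for Raet1e, 1.84 RPKM for 1700028E10Rik and 1.37 RPKM for Slc44a3. The SDs of the last 3 were 0.622, 0.391 and 0.288 RPKM, so their order was within the spread between mice. In the kidney the order was Afm (12.0 RPKM), Tmem86b (3.78 RPKM), Slc44a3 (1.73 RPKM), 1700028E10Rik (0.264 RPKM) and Raet1e (0.0435 RPKM). The Alb level of the kidney libraries, 84.2 CPM at 1340 mg/kg/d and 11.3 CPM at 2680 mg/kg/d, did not move with the kidney Afm level, which was 48.6 and 54.9 CPM.

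Across the 14 liver libraries, the genes with the most similar pattern were found by the Pearson r of log2 CPM after the mean of the water mice of the same schedule was taken off, over 11597 genes with a mean of at least 1 CPM. The values describe the same mice that chose the genes and say nothing of shared function. Raet1e was most like its paralogue Raet1d (r = 0.964), with which it shares exon bases, the cytochrome P450 gene Cyp2b9 (r = 0.914) and Rhbdd2 (r = 0.904). Raet1d had 3.41, 6.26, 15.5 and 8.31 CPM with water and 12.8, 15.3, 25.1 and 15.1 CPM with NMN at 1340 mg/kg/d, which overlap. At 2680 mg/kg/d, it had 20.4, 40.4 and 33.7 CPM with water and 6.94, 11.6 and 11.8 CPM with NMN, which do not. Cyp2b9 had 0.155, 0.326, 1.65 and 0.990 CPM with water and 1.03, 6.49, 18.0 and 4.46 CPM with NMN at 1340 mg/kg/d, and 4.74, 13.2 and 6.31 CPM with water and 0, 0 and 3.75 CPM with NMN at 2680 mg/kg/d. Both genes were thus higher on average with NMN at 1340 mg/kg/d and lower at 2680 mg/kg/d, as Raet1e was.

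**Figure D4:**
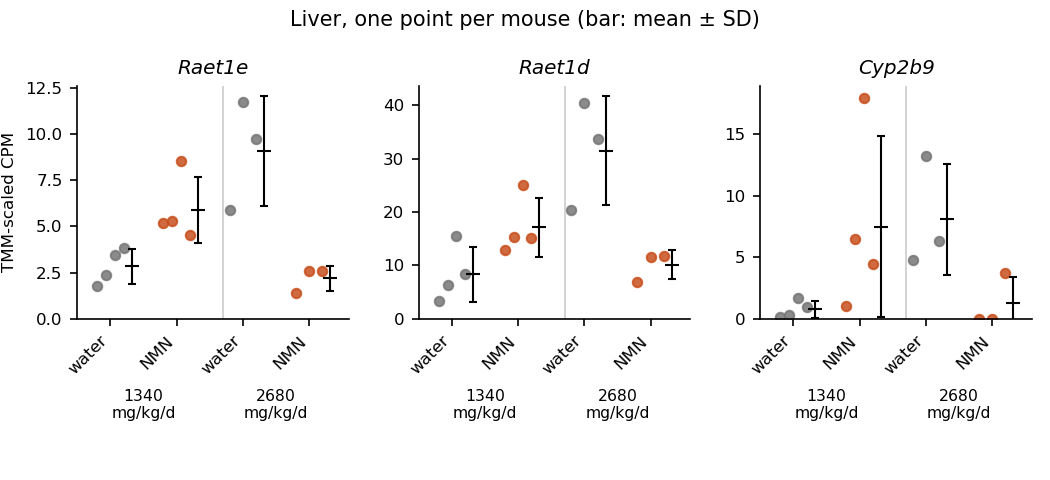
Liver levels of Raet1e and of the 2 genes most like it, Raet1d and Cyp2b9, in TMM-scaled CPM (vertical axes, each starting at 0), with 1 point per mouse and a bar for the mean ± SD of 4 mice (1340 mg/kg/d) or 3 mice (2680 mg/kg/d), cut at 0. In each panel the mean of the NMN mice is above that of the water mice at 1340 mg/kg/d and below it at 2680 mg/kg/d, from 8.37 to 17.1 CPM and from 31.5 to 10.1 CPM for Raet1d.

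The other genes had likenesses between 0.937 and 0.972. Tmem86b was most like the matrix metalloproteinase gene Mmp19 (r = 0.970), 2210016F16Rik (r = 0.969) and Igfals (r = 0.967), which encodes the acid-labile subunit that carries insulin-like growth factors in plasma. Afm was most like Cpq (r = 0.972), Macrod1 (r = 0.971), an ADP-ribose hydrolase gene, and the hepatic lipase gene Lipc (r = 0.969). Slc44a3 was most like the glutamate dehydrogenase gene Glud1 (r = 0.959), the carboxylesterase gene Ces2e (r = 0.950) and Cyp2c29 (r = 0.947). 1700028E10Rik was most like the RNA-binding protein gene Hnrnpa2b1 (r = 0.947), Zfp740 (r = 0.944) and the sulfotransferase gene Sult2a8 (r = 0.937), whose log2 fold changes at 2680 mg/kg/d were 0.63, 0.91 and 0.86. Among the 5 genes themselves, Slc44a3 and Afm were most alike (r = 0.94), and 1700028E10Rik and Tmem86b were opposed (r = -0.96).

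The genes around the 5 in their pathways were counted in the same fits, beside the 3.05% of genes that were higher and the 4.03% that were lower in liver at 2680 mg/kg/d. None of the 5 lists had an edgeR call in liver at 1340 mg/kg/d or in the kidney. Of their genes, 18 of 78 had an unadjusted p under 0.05 in liver at 1340 mg/kg/d, 5 of 77 in kidney at 1340 mg/kg/d and 9 of 78 in kidney at 2680 mg/kg/d, against 6.86%, 8.94% and 11.1% of all genes. DESeq2 called 2 (Apoa4 and Hnf4a), 2 (Etnk1 and Nr1h4) and 1 (Apoe), against 0.573%, 1.23% and 1.52% of all genes. Of 23 tested genes of plasmalogen and lysophospholipid metabolism, the setting of Tmem86b, 2 fell at 2680 mg/kg/d and none rose, with a median log2 fold change of 0.03 (0.00 over all genes). The lysophospholipase gene Pnpla7 fell from 150.1 to 55.0 CPM (log2 fold change -1.46, standard error 0.15, edgeR adjusted p = 0.000731), and the lysosomal phospholipase gene Pla2g15 from 16.6 to 6.47 CPM, -1.37 (standard error 0.24, edgeR adjusted p = 0.00953). Tmem86a, the paralogue of Tmem86b, had 6.61 CPM with water and 5.08 CPM with NMN (log2 fold change -0.39, standard error 0.28, edgeR adjusted p = 0.431). Without water replicate 2, 1 gene of the list was called.

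Of 18 tested genes of choline transport and use, the setting of Slc44a3, 2 fell and none rose, with a median of -0.12. Pemt, which makes phosphatidylcholine by methylation, had a log2 change of -0.57 (standard error 0.14, edgeR adjusted p = 0.0403), and Bhmt, the betaine methyltransferase gene, -0.55 (standard error 0.15, edgeR adjusted p = 0.0486). Both were close to the threshold, and no gene of the list was called without water replicate 1 or 2 or NMN replicate 1 or 3, and 1 gene was called without water replicate 3 or with DESeq2's size factors. The relatives Slc44a1 and Slc44a2 had log2 fold changes of -0.28 (standard error 0.20, edgeR adjusted p = 0.425) and -0.17 (standard error 0.27, edgeR adjusted p = 0.754). Slc44a4 was a kidney gene, with 70.8 CPM in kidney and 0.0527 CPM in liver in the 2680 mg/kg/d water mice.

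Of the 15 listed NKG2D ligand and receptor genes, the setting of Raet1e, 11 had a symbol in the annotation and 4 were tested in liver at 2680 mg/kg/d. Raet1d fell, with a log2 change of -1.65 (standard error 0.28, edgeR adjusted p = 0.0101), and the median of the 4 was -0.21. H60c and Ulbp1 were at 0 CPM in all liver groups, and the receptor gene Klrk1 had 0.582 CPM with water and 0.671 CPM with NMN. Of 16 tested genes of the albumin family and vitamin E handling, the setting of Afm, 2 fell and none rose, with a median of -0.05. Cyp4f14, the vitamin E hydroxylase gene, had a log2 change of -1.24 (standard error 0.14, edgeR adjusted p = 0.00124), and Gc, the vitamin D binding protein gene, -0.56 (standard error 0.11, edgeR adjusted p = 0.0178). Without water replicate 1 or 2 or NMN replicate 3, 1 gene of the list was called. DESeq2 called 3 and edgeR without a filter 4, in both cases with Ttpa among them. Alb had a log2 change of -0.36 (standard error 0.11, edgeR adjusted p = 0.0750), and Ttpa, which encodes the vitamin E transfer protein of the liver, 0.52 (standard error 0.16, edgeR adjusted p = 0.0710), and was called higher with NMN by DESeq2.

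Of 20 liver-enriched transcription factors, Nr1i3 (the constitutive androstane receptor) rose at 2680 mg/kg/d from 53.0 to 139 CPM (log2 fold change 1.38, standard error 0.16, edgeR adjusted p = 0.00141). Cebpa fell, with a log2 change of -0.59 (standard error 0.16, edgeR adjusted p = 0.0489), and the median of the list was 0.21. The number called was 6 with DESeq2 and without a filter, 4 without NMN replicate 2, and 1 with DESeq2's size factors and without water replicate 1, water replicate 3 or NMN replicate 3. The counting ignored strand, and the exons of 4 of the 5 genes overlap a gene on the other strand. Their liver levels were at most 0.701 CPM for D730045B01Rik beside 1700028E10Rik, 0.116 CPM for Gm44877 beside Tmem86b and 0.528 CPM for Gm42109 beside Afm. A530020G20Rik beside Slc44a3 had 1.60 CPM with water and 0.456 CPM with NMN at 2680 mg/kg/d (log2 fold change -1.79, standard error 0.81, edgeR adjusted p = 0.204). A read wholly inside exons of both genes cannot be told apart, and it was ambiguous and counted for neither.

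In bulk liver, fewer cells of a type and less RNA per cell cannot be told apart. Summed over the 8 hepatocyte markers, the liver level at 2680 mg/kg/d was between 160961 and 175211 CPM with water and between 118573 and 135287 CPM with NMN, with Alb the most abundant gene and no marker at 0. Of the 8 markers, 2 fell, beside 4.03% of all genes. They were Ttr (log2 fold change -0.97, standard error 0.13, edgeR adjusted p = 0.00227) and Serpina1c (-0.58, standard error 0.12, edgeR adjusted p = 0.0196). The other markers did not pass, and Tat was above 0 (0.18, standard error 0.23). At 1340 mg/kg/d the sums overlapped, at 94987 to 126055 CPM with water and 89873 to 124229 CPM with NMN. In the red blood cell list 1 of 5 markers fell at 2680 mg/kg/d, beside the same 4.03% of all genes. It was Alas2, the first enzyme of haem synthesis in erythroid cells, from 102 to 31.3 CPM. The globin genes did not pass the test (log2 fold changes from -0.01 to 0.60). No marker of Kupffer, endothelial, stellate, bile duct, B or neutrophil cells passed in liver in either schedule with edgeR, where 5 of 25 tested markers at 1340 mg/kg/d and 2 of 28 at 2680 mg/kg/d had an unadjusted p under 0.05 (6.86% and 24.6% of all genes), and DESeq2 called 0 and 1 (Lyve1), beside 11.6% of all genes in the latter. B cell markers were too low for a test at 1340 mg/kg/d. The 7 T and NK cell markers summed to at most 2.88 CPM in any liver library and were too low for a test. The median log2 fold change of the hepatocyte markers at 2680 mg/kg/d was -0.39, and the part of these levels in the 5 genes was not tested.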

How the data were processed

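RNA of liver and kidney from 28 libraries was analysed. The authors used STAR for alignment and HTSeq-count (strict intersection, strand ignored) for counting, and deposited raw whole-number counts. Of 54446 identifiers, 53229 matched GENCODE M21 with version, 1180 without it and 37 not at all. The genome build of the alignment is uncertain, and coordinates are those of RefSeq's own table.

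The 5 genes and all lists were chosen with earlier results of these data known. Counts were filtered (filterByExpr), scaled (TMM) and tested in edgeR 4.0.16 (R 4.3.3, quasi-likelihood, robust), with Benjamini-Hochberg adjustment over all tested genes and a threshold of 0.05. Each standard error is the absolute log2 change over the root of the F statistic. Displayed CPM is scaled over the 14 libraries of an organ. Alternatives were DESeq2 1.42.0, other scalings and filters, a stricter threshold, the replicate block and each library left out. The fits were tested on simulated counts. Named were the 5 genes, the 3 most alike to each, genes at the threshold, overlapping genes, relatives and the 3 genes per list with the smallest p at 2680 mg/kg/d. Reads carry no molecular identifiers, so depth limits only counting error.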

Additional observations from a re-analysis of the deposited data

Results flagged for a closer look

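In 3 groups of 4 mice, 1 mouse lay far from the others by Dixon's test, out of 20 such groups examined, of which chance flags about 1 in 20. Liver Tmem86b of the 1340 mg/kg/d NMN mice was highest in replicate 1, at 60.95 CPM, against 40.4 to 41.8 CPM in the other mice. Liver Afm of the 1340 mg/kg/d water mice was highest in replicate 2, at 293.7 CPM, against 245 to 252 CPM. Kidney Raet1e of the 1340 mg/kg/d NMN mice was 0.06674 CPM in replicate 4, which is 1 read, and 0 in the others. With all other values equal, any read is flagged, so this flag was fixed in advance and cannot be set against chance.

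The effect of NMN differed between schedules in liver for all 5 genes, which is the value they were chosen on and no independent evidence. The difference (2680 minus 1340 mg/kg/d, log2) was 1.99 for 1700028E10Rik, -1.62 for Tmem86b, -3.10 for Raet1e, -2.57 for Slc44a3 and -1.01 for Afm.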

How the results depend on the processing

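1700028E10Rik, Tmem86b, Raet1e and Slc44a3 passed the liver interaction in all 20 alternative fits run, and Afm in 10 of them. These fits reuse the libraries and the contrast that chose the genes, so passing again is no independent evidence. Under the stricter threshold 1700028E10Rik, Tmem86b and Raet1e were kept, and Slc44a3 (adjusted p = 0.0104) and Afm were not. Afm lost the call with the replicate block (adjusted p = 0.0547) and without water replicate 4 or NMN replicate 1, 2 or 3 at 1340 mg/kg/d, or water replicate 1, 2 or 3 or NMN replicate 1 or 3 at 2680 mg/kg/d. Its values in the 14 fits that left out 1 library ran from -1.09 to -0.97, with adjusted p from 0.00649 to 0.109.

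Numbers of genes called changed more. DESeq2 called 74 (liver, 1340 mg/kg/d), 1448 (liver, 2680 mg/kg/d), 99 (liver interaction), 159 and 236 (kidney) and 10 (kidney interaction) genes, and without a filter the counts were 44, 1785, 71, 269, 514 and 106. The stricter threshold (adjusted p under 0.01 with a fold over 2 or under 0.5) left 0, 135, 6, 2, 3, 0, and 6016 and 6474 between organs. The replicate block gave 16 (liver, 1340 mg/kg/d), 75 and 92 (kidney) and 2 (kidney interaction); upper quartile scaling and at least 10 counts each left 0 in the kidney interaction. Leaving out 1 library gave 0 to 18 and 211 to 1308 genes in liver, 7 to 25 for the liver interaction, 5 to 67 and 3 to 191 in kidney, 0 to 1 for the kidney interaction, and 9075 to 10275 and 9548 to 10945 between organs. The lowest counts at 2680 mg/kg/d came without water replicate 2 (liver) and water replicate 3 (kidney). Without NMN replicate 4 at 1340 mg/kg/d, the library with 12.8% of reads with no feature, the liver interaction gave 25 genes, and without NMN replicate 2 at 2680 mg/kg/d 19. No source says what a shared library number stands for. The mean correlation of the deviations of same-numbered libraries ran from 0.0187 to 0.132 over 6 comparisons, highest between the organs at 1340 mg/kg/d. The number of libraries that correlated best with their own number was 6 of 6 in liver and between the organs at 2680 mg/kg/d, 7 of 8 between the organs at 1340 mg/kg/d, 4 of 8 and 2 of 6 in kidney and 2 of 8 in liver at 1340 mg/kg/d. The cause was not tested.

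Effects near 0 changed sign. Without 1 library, Afm in liver at 1340 mg/kg/d ran from -0.03 to 0.08, 1700028E10Rik in kidney at 2680 mg/kg/d from -0.06 to 0.41, and the kidney interaction of Tmem86b from -0.03 to 0.34 and of Slc44a3 from -0.01 to 0.16. Afm in liver was -0.00 with upper quartile scaling, and below 0 without water replicate 1, 3 or 4 or NMN replicate 2 or 3. Raet1e is limited by depth in the kidney.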
